A study of Mus musculus with 13 samples.

Results

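High endothelial venules are the vessels through which lymphocytes leave the blood into lymph nodes, and the stroma of those organs places the cells by means of chemokines. The results concern 8 genes: Glycam1, Madcam1, Chst4 and Fut7 of the venules, and Ccl21a, Ccl19, Cxcl13 and Coch of the lymphoid stroma. They were picked by name from a table of 34013 gene identifiers, after their levels in these libraries were known, so their levels and fitted changes are given as a description without a test. All 8 were in the table. In recipients of splenocytes from diabetic mice with the wild-type label, 3 of 4 libraries held these transcripts at levels above most or all of the other libraries, and the remaining one (replicate 1) did not for most of the genes.

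The tissue was perivascular adipose tissue, the fat around blood vessels, of C57BL/6 mice that had received splenocytes, with 13 bulk RNA sequencing libraries in 4 groups. TS-R are recipients of cells from mice with type 2 diabetes (T2DM), labelled WT (n = 4). NTS-R received cells from Nlrp3 KO T2DM mice (n = 3) and NS-R cells from Nlrp3 KO mice without that label of diabetes (n = 3), both labelled Nlrp3 KO. WTS-R received cells from WT mice and are labelled WT (n = 3). All groups share the transfer itself, and there is no group without a transfer among these samples. The study set out to profile immune infiltration in this fat after transfer of diabetic immune cells. Whether the genotype label is that of donors or of recipients is not stated, and the sources used here do not give age, sex, how diabetes was induced or the time after transfer. The labels do not tie libraries to animals, so p-values cover only the spread among these libraries, part of which may be technical.

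Naive lymphocytes roll on sulphated and fucosylated sugars that mucin-like proteins display on the venule wall. The chemokines of the CCR7 receptor then arrest T cells. They also hold T cells and dendritic cells in T zones, while the chemokine of the CXCR5 receptor gathers B cells into follicles. Lymphotoxin from lymphocytes acts through its receptor and the alternative NF-kappaB route on stromal and endothelial cells, and is known to maintain both the venules and the chemokines. Aggregates with such venules can also form outside lymph nodes, as tertiary lymphoid tissue, and lymph nodes lie embedded in fat.

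The promoter windows of 4 members are shown because that route ends at DNA: the venule genes Glycam1 and Madcam1, and the chemokines Ccl19 and Cxcl13. RefSeq sequences of mouse build GRCm38.p6 were used, from 250 bases before to 50 after the annotated start, which is a build the count table does not name. The windows lie at chr15:103565032-103565331 on the minus strand, chr10:79664309-79664608 on the plus strand, chr4:42756316-42756615 on the minus strand and chr5:95956689-95956988 on the plus strand. Each is written 5′ to 3′ along the gene, with matches to the NF-kappaB consensus or to the TATA box TATAAA in capitals.
Glycam1: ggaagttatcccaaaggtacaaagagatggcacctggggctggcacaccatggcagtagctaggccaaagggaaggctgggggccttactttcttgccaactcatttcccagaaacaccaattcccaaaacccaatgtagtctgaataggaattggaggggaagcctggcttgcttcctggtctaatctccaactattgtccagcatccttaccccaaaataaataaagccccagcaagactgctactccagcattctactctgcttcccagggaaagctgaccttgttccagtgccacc
Madcam1: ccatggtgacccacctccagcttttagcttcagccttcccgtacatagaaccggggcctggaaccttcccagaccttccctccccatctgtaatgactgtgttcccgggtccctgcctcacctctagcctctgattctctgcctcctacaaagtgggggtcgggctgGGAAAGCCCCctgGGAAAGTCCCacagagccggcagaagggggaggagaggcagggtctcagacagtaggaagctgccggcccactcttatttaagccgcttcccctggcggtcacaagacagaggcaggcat
Ccl19: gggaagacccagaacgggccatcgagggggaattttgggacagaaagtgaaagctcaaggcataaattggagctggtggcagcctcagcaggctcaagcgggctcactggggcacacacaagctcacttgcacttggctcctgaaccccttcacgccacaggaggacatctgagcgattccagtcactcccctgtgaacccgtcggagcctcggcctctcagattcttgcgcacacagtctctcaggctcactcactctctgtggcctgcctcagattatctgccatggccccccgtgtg
Cxcl13: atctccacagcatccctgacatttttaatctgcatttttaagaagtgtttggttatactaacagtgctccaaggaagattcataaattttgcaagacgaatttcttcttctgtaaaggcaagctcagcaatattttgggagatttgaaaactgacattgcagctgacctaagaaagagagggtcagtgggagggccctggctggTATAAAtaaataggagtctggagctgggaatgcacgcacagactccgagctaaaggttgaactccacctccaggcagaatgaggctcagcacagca
Windows were found for all 8 members (Fut7 has 2), and both strands were searched. Madcam1 was the member with matches to the NF-kappaB consensus, 2 of them in tandem on the minus strand at positions -83 and -70 from the start. Shares were counted over 32851 windows, which leave out 1 chromosome, and 4.51% of them held at least 1 such match. Cxcl13 had the letters TATAAA at -46, and Coch had them on the minus strand at 4 bases past the start. Of the windows counted, 13.6% held these letters. The Coch match runs against the gene and lies past its start, so it is given as letters only. The letters TNAAGTG, bound by NK2 homeodomain factors, were in 11.5% of the windows counted and in none of the members. No overlap between motifs occurred in the members. A match is a run of letters, and no match says only that the letters are not in the window. Only this NF-kappaB consensus was searched for, so sites with other letters are not marked. No search was made for sites of the alternative route in particular, so the matches do not tell which members it could act on.

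Library totals ranged from 14216706 to 37011122 counts, and 3 counts, the limit that a count of 0 allows, came to 0.0811 to 0.211 CPM for counting error alone. Levels are CPM, counts scaled to a common library total. The libraries were not uniform in tissue content. Airway epithelial markers summed to 2786 and 5762 CPM in NS-R replicates 1 and 2, and to at most 0.955 CPM elsewhere. Skeletal muscle markers reached 10910 CPM in TS-R replicate 1. Xist, from the inactive X chromosome, had 805 CPM in TS-R replicate 3 and 459.5 CPM in NS-R replicate 3, and at most 0.352 CPM in the others, so that neither TS-R nor NS-R can be libraries of 1 animal alone. The 6 adipocyte markers that define the labelled tissue were present in every library, from 4399 CPM in TS-R replicate 3 to 16350 CPM in WTS-R replicate 3. In such bulk tissue, fewer cells of a type and less RNA per cell cannot be told apart, and the part of these differences in the results below was not tested.

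Of the venule genes, Glycam1 encodes the mucin-like glycoprotein that carries such sugars on venules and is also known from the lactating mammary gland. Replicates 1 to 4 of TS-R had 0.0336, 74.3, 1166 and 8.54 CPM. NTS-R libraries had 0.116, 0 and 0.0703 CPM, NS-R libraries 0.0270, 0 and 0.0591 CPM, and WTS-R libraries 0.0601, 0.0565 and 0 CPM. Nearly all counts of this gene therefore came from 3 libraries: TS-R held 35428 counts, NTS-R 3, NS-R 2 and WTS-R 2, and TS-R replicate 1 held 1. The pooled CPM was 9942-fold higher in TS-R than in WTS-R, with an exact 95% counting interval of 2752 to 82100, and 515-fold (142 to 4255) without TS-R replicate 3. These intervals cover counting error and not the spread between libraries, in which the groups overlapped through TS-R replicate 1. The pooled ratio of NTS-R over TS-R was 0.000165 (3.4e-05 to 0.000482), and 0.00318 (0.000656 to 0.00933) without TS-R replicate 3. Of the milk protein genes, Csn2 was highest in TS-R replicate 3, at 1.12 CPM, above that library's limit of 0.102 CPM. Csn3, Lalba and Wap had at most 0.270 CPM in any library. The part of mammary tissue in the Glycam1 values was not tested.

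Madcam1 encodes the addressin that binds the integrin made by the products of Itga4 and Itgb7, on venules of mucosal lymphoid tissue. It had 0.235, 2.44, 13.3 and 1.22 CPM in TS-R replicates 1 to 4. In NTS-R it had 0, 0.207 and 0.141 CPM, in NS-R 0.0270, 0 and 0.177 CPM, and in WTS-R 0, 0.0565 and 0.0630 CPM. All 4 TS-R libraries lay above all others, although replicate 1 did so with only 7 counts and was close to the highest NTS-R library. The pooled CPM was 127-fold higher in TS-R than in WTS-R (35.0 to 1053), which had 2 counts, and 25.9-fold (6.87 to 219) without TS-R replicate 3.

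Chst4 encodes a sulphotransferase that adds the sulphate to these sugars, and Fut7 a fucosyltransferase that finishes the same sugar and also acts in leukocytes. Chst4 had 1.27, 3.86, 10.5 and 3.34 CPM in TS-R replicates 1 to 4. It had 2.49, 1.45 and 0.492 CPM in NTS-R, 3.32, 2.34 and 0.531 CPM in NS-R, and 1.80, 1.47 and 1.70 CPM in WTS-R. Thus Chst4 alone of the venule genes was above the limit of 3 counts in every library, and NS-R replicate 1 was level with TS-R replicate 4. Fut7 had 0.268, 3.04, 5.63 and 0.514 CPM in TS-R. It had 0.0580, 0.138 and 0.211 CPM in NTS-R, 0.189, 0.114 and 0.236 CPM in NS-R, and 0.240, 0 and 0.315 CPM in WTS-R. Fut7 stood apart in TS-R replicates 2 and 3, while replicates 1 and 4 lay near WTS-R replicate 3. It was the member that did not pass the filter on low counts, so it has no fitted value, and its pooled CPM was 14.1-fold higher in TS-R than in WTS-R (7.29 to 31.2), and 5.66-fold (2.79 to 12.96) without TS-R replicate 3.

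Among the chemokines, Ccl21a encodes a CCR7 ligand of venules, T zone stroma and lymphatic vessels. It had 9.16, 262, 368 and 35.5 CPM in TS-R replicates 1 to 4. It had 14.3, 14.6 and 5.56 CPM in NTS-R, 14.0, 14.7 and 18.5 CPM in NS-R, and 10.7, 11.0 and 44.0 CPM in WTS-R. TS-R replicates 2 and 3 were far above the rest, WTS-R replicate 3 was above TS-R replicate 4, and TS-R replicate 1 was the second lowest of all. In WTS-R replicate 3, which had no Glycam1 count, the 5 lymphatic endothelial markers summed to 60.4 CPM, against 37.8 and 39.7 CPM in the other WTS-R libraries. NS-R replicate 3 and NTS-R replicate 1 had more of these markers, at 67.3 and 61.0 CPM, with 18.5 and 14.3 CPM of Ccl21a. The part of lymphatic content in Ccl21a was not tested. Lymphatic markers in TS-R summed to 45.4, 76.6, 98.8 and 103 CPM, so TS-R replicate 4 had the most of them and less Ccl21a than WTS-R replicate 3. Reads of Ccl21a are uncertain, because mice have near-identical copies: the transcript of Gm10591 matches that of Ccl21a at 400 of 402 aligned bases. Gm10591 had 191 counts in TS-R replicate 3 and 57 in WTS-R replicate 1, and Gm13304 and Ccl21b had 8 and 1 counts over all 13 libraries.

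Ccl19 encodes the other CCR7 ligand, made mainly by T zone stroma and mature dendritic cells. It had 0.369, 26.4, 43.3 and 4.56 CPM in TS-R replicates 1 to 4. In NTS-R it had 0.696, 0.897 and 0.281 CPM, in NS-R 0.811, 0.399 and 0.709 CPM, and in WTS-R 0.300, 0.621 and 0.756 CPM. Every library outside TS-R replicates 2, 3 and 4 was under 1 CPM, WTS-R replicate 3 with its high Ccl21a included. The pseudogene Ccl19-ps3, which could share reads, had 84 counts in TS-R replicate 3 and 26 in WTS-R replicate 3.

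Cxcl13 encodes the CXCR5 ligand of follicular stroma. It had 12.4, 51.8, 301 and 24.9 CPM in TS-R replicates 1 to 4. It had 14.8, 3.73 and 2.67 CPM in NTS-R, 4.84, 3.31 and 4.19 CPM in NS-R, and 4.93, 1.41 and 2.39 CPM in WTS-R. Each TS-R library exceeded each NS-R and WTS-R library, and NTS-R replicate 1 was above TS-R replicate 1. Both of these 2 libraries had Cxcl13 without the venule gene Glycam1, which stood at 1 count in the TS-R and 2 counts in the NTS-R library. They also had B cell markers above the other libraries outside TS-R replicates 2 to 4, at 22.8 CPM in the TS-R library and 38.1 CPM in the NTS-R library, against at most 18.4 CPM.

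Coch encodes cochlin, an extracellular matrix protein known from the inner ear and from follicular dendritic cells. It had 0.470, 3.11, 33.6 and 2.70 CPM in TS-R replicates 1 to 4. It had 0.464, 0.966 and 0.774 CPM in NTS-R, 0.486, 0.570 and 1.004 CPM in NS-R, and 0.0601, 0.508 and 0.315 CPM in WTS-R. TS-R replicate 3 held most of it, and TS-R replicate 1 lay within the NTS-R and WTS-R ranges and just below NS-R.

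**Figure D1:**
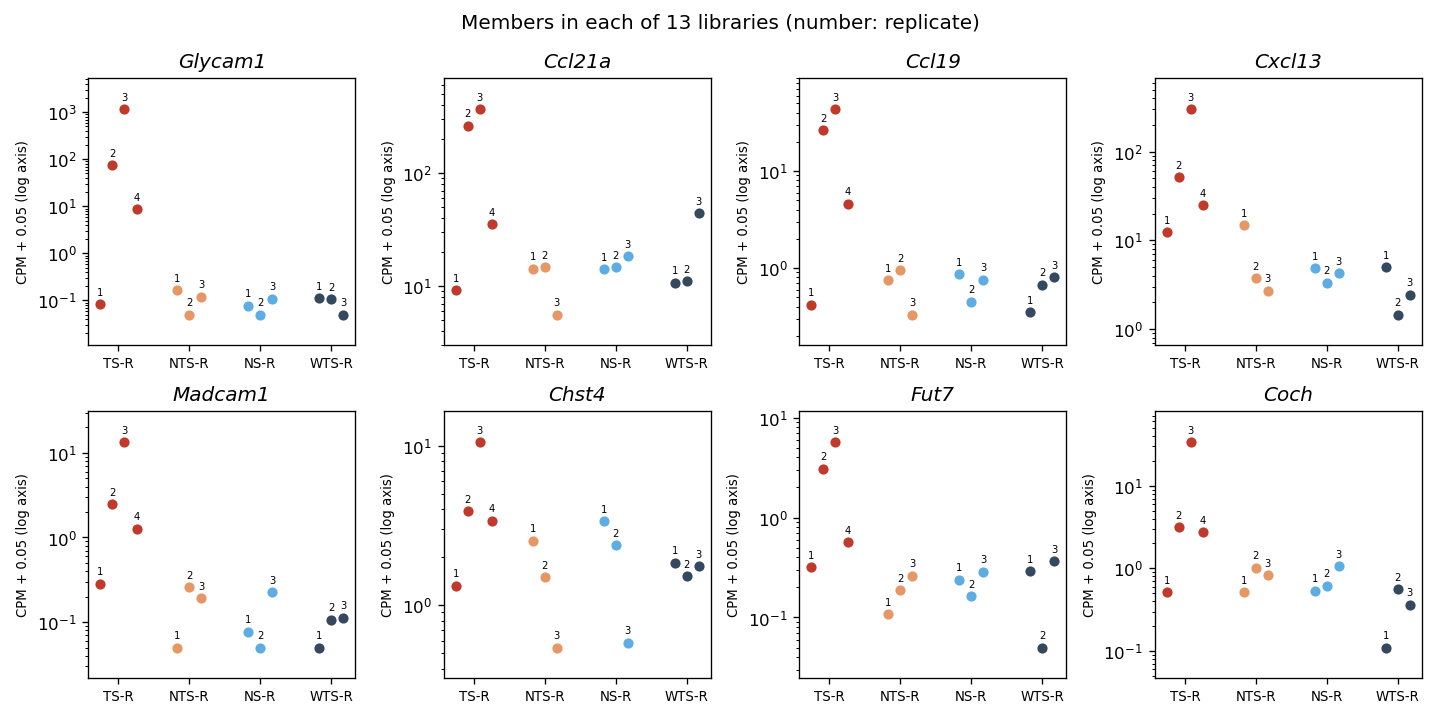
CPM + 0.05 on a log axis for each of the 8 members in 13 libraries, grouped as TS-R, NTS-R, NS-R and WTS-R, with 1 point per library marked by its replicate number. TS-R replicates 2, 3 and 4 stand high, as at 74.3, 1166 and 8.54 CPM for Glycam1, whereas TS-R replicate 1 lies with the other groups for most members.

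Group means put TS-R first for all 8 members, with wide errors. Glycam1 averaged 312 ± 570 CPM in TS-R (SD, n = 4), Ccl21a 169 ± 175 CPM, Cxcl13 97.4 ± 136 CPM and Ccl19 18.7 ± 20.02 CPM. Coch averaged 9.98 ± 15.8 CPM, Chst4 4.74 ± 3.998 CPM, Madcam1 4.31 ± 6.08 CPM and Fut7 2.36 ± 2.51 CPM in TS-R. For each of the 8 members the gap between the TS-R mean and the next highest group mean was smaller than the TS-R standard deviation. Among the other groups the order differed by gene. Ccl21a averaged 11.5 ± 5.14 CPM in NTS-R, 15.7 ± 2.41 CPM in NS-R and 21.9 ± 19.2 CPM in WTS-R (SD, n = 3 each). Cxcl13 averaged 7.06 ± 6.71 CPM in NTS-R, 4.11 ± 0.769 CPM in NS-R and 2.91 ± 1.81 CPM in WTS-R. Neighbouring groups in these orders differed by less than the larger of their standard deviations. The exception among the 8 members was Coch, at 0.734 ± 0.253 CPM in NTS-R, 0.687 ± 0.278 CPM in NS-R and 0.295 ± 0.225 CPM in WTS-R, where NS-R and WTS-R still overlapped.

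The first comparison, TS-R against WTS-R, is of donor diabetes with the WT label. The fitted log2 difference was 4.74 ± 1.08 (SE) for Cxcl13, 4.74 ± 1.19 for Ccl19, 4.70 ± 1.29 for Coch, 2.67 ± 0.99 for Ccl21a and 1.22 ± 0.69 for Chst4. For Glycam1 and Madcam1, with 2 counts each in WTS-R, the pooled ratios above stand in place of a fitted value. Without TS-R replicate 3 the fitted values were 3.10 for Cxcl13, 3.95 for Ccl19, 2.52 for Coch, 2.01 for Ccl21a and 0.51 for Chst4. Every TS-R library was above every WTS-R library for 2 of the 8 members, Cxcl13 and Madcam1, and 19.2% of all 17270 genes tested did the same. Without TS-R replicate 1 this held for 7 of the 8 members and for 28.7% of all genes tested. These counts come from the values that chose the members, and nothing is read from them.

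The second comparison, NTS-R against TS-R, sets the Nlrp3 KO donors of the diabetic pair against those labelled WT, and it shares the TS-R libraries with the first. The fitted log2 difference was -3.48 ± 1.004 for Cxcl13, -4.57 ± 1.19 for Ccl19, -3.39 ± 1.18 for Coch, -3.57 ± 1.04 for Ccl21a and -1.39 ± 0.70 for Chst4. Without TS-R replicate 3 the values were -1.83 for Cxcl13, -3.77 for Ccl19, -1.21 for Coch, -2.88 for Ccl21a and -0.67 for Chst4. Without NTS-R replicate 1, Cxcl13 had -4.51. The pooled ratio of NTS-R over TS-R was 0.0215 (0.00694 to 0.0505) for Madcam1 and 0.0517 (0.0188 to 0.114) for Fut7. Without TS-R replicate 3 these ratios were 0.105 (0.0331 to 0.260) for Madcam1 and 0.129 (0.0455 to 0.297) for Fut7. Every NTS-R library was below every TS-R library for Madcam1 and Fut7, 2 of 8 members, against 16.9% of all genes tested. With library sizes scaled by TMM this held for none of the 8, against 6.82% of all genes. Without TS-R replicate 1 it held for all 8 in CPM, against 26.3% of all genes, and again nothing is read from these counts.

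In the remaining pairs the fitted differences lay within their errors. In NS-R against WTS-R the fitted log2 difference was -0.46 ± 0.97 for Ccl21a, 0.18 ± 1.17 for Ccl19, 0.47 ± 0.999 for Cxcl13, 0.25 ± 0.73 for Chst4 and 1.16 ± 1.28 for Coch. In NTS-R against NS-R it was -0.43 ± 0.98 for Ccl21a, -0.0033 ± 1.16 for Ccl19, 0.78 ± 0.97 for Cxcl13, -0.42 ± 0.73 for Chst4 and 0.15 ± 1.20 for Coch. Each of these 10 values was smaller than its standard error. Glycam1 and Madcam1 had 2 to 5 counts per group in NTS-R, NS-R and WTS-R, too few for a ratio. For Fut7 the pooled ratio was 1.01 (0.401 to 2.69) in NS-R over WTS-R and 0.718 (0.224 to 2.02) in NTS-R over NS-R. No member separated the groups in either pair, where 7.78% (higher) and 4.02% (lower) of all genes did so in NS-R against WTS-R, and 5.29% (higher) and 7.76% (lower) in NTS-R against NS-R. The difference between the diabetes effects, NTS-R against NS-R less TS-R against WTS-R, was -4.75 ± 1.62 for Ccl19, -4.55 ± 1.72 for Coch, -3.96 ± 1.39 for Cxcl13, -3.10 ± 1.37 for Ccl21a and -1.64 ± 1.01 for Chst4.

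Within TS-R the members did not scale together. From TS-R replicate 2 to replicate 3 the CPM ratio was 15.7 for Glycam1, 10.8 for Coch, 5.80 for Cxcl13 and 5.47 for Madcam1, but 2.72 for Chst4, 1.85 for Fut7, 1.64 for Ccl19 and 1.40 for Ccl21a. Between replicates 4 and 2 a different set moved: the ratio of replicate 2 over replicate 4 was 8.70 for Glycam1, 7.40 for Ccl21a, 5.92 for Fut7 and 5.78 for Ccl19, and 2.08 for Cxcl13, 1.99 for Madcam1 and 1.15 for both Chst4 and Coch. The CCR7 ligands and the venule gene Fut7 thus differed less between replicates 2 and 3 than between 2 and 4. The reverse held for Cxcl13 and Coch, of the follicle, and for the venule genes Glycam1, Madcam1 and Chst4. Each ratio compares 1 library with another and has no replicate check.

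Levels per length of the longest protein-coding transcript allow the members to be set against each other. In TS-R replicate 3 Glycam1 led at 1819 CPM per kb, before Ccl21a at 423, Cxcl13 at 261, Ccl19 at 56.1 and Coch at 12.5 CPM per kb. In TS-R replicates 2 and 4 Ccl21a led, at 301 and 40.8 CPM per kb, with Glycam1 at 116 and 13.3 CPM per kb. Ccl21a was thus the first or second member in every library of the series, and Cxcl13 was first in TS-R replicate 1 alone, at 10.8 against 10.5 CPM per kb for Ccl21a. The ratio of Ccl21a to Ccl19 per kb was 8.83, 7.54 and 6.91 in TS-R replicates 2, 3 and 4, while that of Glycam1 to Ccl21a was 0.385, 4.301 and 0.327.

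**Figure D2:**
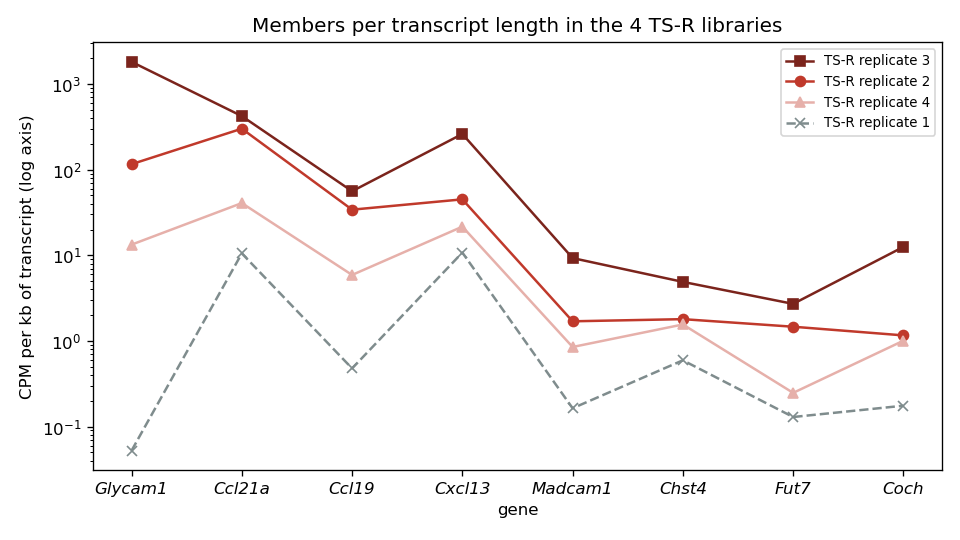
CPM per kb of transcript on a log axis for the 8 members, with 1 line for each of the 4 TS-R libraries. Lines for Ccl21a and Ccl19 run close in replicates 2 and 3, whereas Glycam1 differs between them at 116 and 1819 CPM per kb.

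Markers of lymphocytes moved with the members. The 8 members summed to 24.2, 427, 1941 and 81.2 CPM in TS-R replicates 1 to 4, to 10.2 to 32.9 CPM in NTS-R, to 21.4 to 25.4 CPM in NS-R, and to 15.1 to 49.5 CPM in WTS-R. The 6 B cell markers, of which all were detected, summed to 22.8, 396, 1970 and 147 CPM in TS-R, to 6.14 to 38.1 CPM in NTS-R, to 13.6 to 18.4 CPM in NS-R, and to 9.13 to 11.5 CPM in WTS-R. The 6 T cell markers summed to 12.7, 208, 512 and 56.5 CPM in TS-R, to 6.68 to 14.8 CPM in NTS-R, to 5.40 to 13.5 CPM in NS-R, and to 4.33 to 6.74 CPM in WTS-R. Follicular dendritic cell markers, of which 3 of 4 were in the table, summed to 4.70, 67.7, 379 and 23.2 CPM in TS-R, to 1.24 to 3.71 CPM in NTS-R, to 1.24 to 3.73 CPM in NS-R, and to 0.901 to 2.14 CPM in WTS-R; Cr2 and Fcer2a of this list are also B cell genes. Plasma cell markers summed to 725, 1807, 4797 and 2689 CPM in TS-R, to 196 to 621 CPM in NTS-R, to 135 to 723 CPM in NS-R, and to 89.7 to 196 CPM in WTS-R. The part of lymphocyte content in the members' values was not tested. The ratio of the members' sum to that of the B cell markers was 1.06, 1.08, 0.985 and 0.551 in the 4 TS-R libraries, 0.862 to 3.585 in NTS-R, 1.38 to 1.67 in NS-R and 1.32 to 4.47 in WTS-R. To the T cell markers it was 1.90, 2.05, 3.79 and 1.44 in TS-R, and 1.53 to 3.22 in NTS-R. It was 1.88 to 4.38 in NS-R and 2.97 to 7.35 in WTS-R, so neither ratio of sums was highest in TS-R. Different members led these sums: Ccl21a made up 88.8% in WTS-R replicate 3, and Glycam1 60.1% in TS-R replicate 3. The ratios therefore do not describe each member.

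Blood endothelial markers did not follow the members. They summed to 914, 863, 604 and 837 CPM in TS-R, to 702 to 797 CPM in NTS-R, to 736 to 1021 CPM in NS-R, and to 677 to 761 CPM in WTS-R, so TS-R replicate 3 had the highest members and the lowest blood endothelial sum. Adipocyte markers were also lowest in that library, at 4399 CPM, against 9918 to 16350 CPM in the other 12. The thymus list, with 7 of 8 genes in the table, summed to 188, 142, 88.4 and 158 CPM in TS-R, to 139.7 to 263 CPM in NTS-R, to 134 to 176 CPM in NS-R and to 162 to 228 CPM in WTS-R. Nearly all of this was Cd1d1, a gene of many cell types, at 76.7 to 255 CPM, with Ccl25 at 5.78 to 8.92 CPM. Of the genes that define developing thymocytes and thymic cortex, Rag1 had at most 0.580 CPM, Ptcra at most 0.0642 CPM and Psmb11 at most 0.0682 CPM in any library. Dntt, a gene of early lymphocytes, had 1.56 and 0.989 CPM in TS-R replicates 2 and 3 and at most 0.580 CPM elsewhere. Aire, which marks thymic epithelium and some lymph node cells, had 1.76 and 3.03 CPM in TS-R replicates 2 and 3 and at most 0.385 CPM elsewhere. The part of tissue content in the members' values was not tested.

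**Figure D3:**
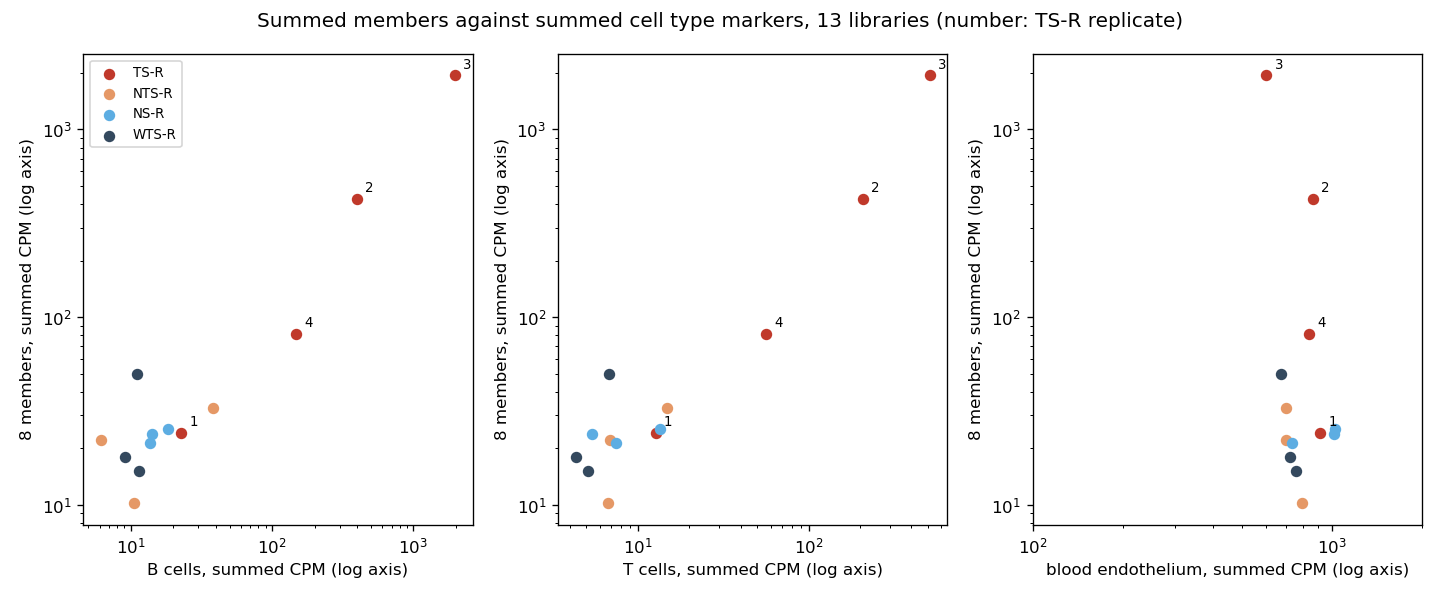
Summed CPM of the 8 members against the summed CPM of markers for B cells, T cells and blood endothelium, all on log axes, with 1 point per library. TS-R replicates 2, 3 and 4 lie high on the B and T cell axes, at 396, 1970 and 147 CPM of B cell markers, while replicate 3 lies lowest on the endothelial axis, at 604 CPM.

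Across the 13 libraries, the 8 genes most like the mean member profile on the log2(CPM + 0.5) scale, among 15214 other genes with a mean of 1 CPM or more, were Ccr6, Lta, Icosl, Lef1, Serpina10, Vmn2r96, Gm11346 and Rassf5. Pearson's r ran from 0.994 for Ccr6 to 0.992 for Rassf5. Ccr6 encodes a chemokine receptor of B and T cells, Lta a lymphotoxin chain, Icosl the ligand of the costimulator ICOS, and Lef1 a transcription factor of lymphocytes. No lymphocyte role is given here for Serpina10, Vmn2r96, Gm11346 and Rassf5, which ranked beside them. Outside TS-R, Ccr6 had at most 0.116 CPM and Serpina10 at most 0.059 CPM. Both thus met the mean of 1 CPM only through TS-R, and their likeness is no independent support. The points share their library, its depth and its tissue content, and 3 TS-R libraries spread the scale. By Spearman's rho none of the 8 remained among the first 8, with rho 0.714 for Ccr6 and 0.639 for Lta. Without TS-R replicate 3, 6 of the 8 remained.

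Other genes of the pathway come from 4 lists of 60 genes, of which 57 were tested. The lists were chosen with earlier results of these data known. Lta, for example, had at most 3 counts in any library outside TS-R. It could thus pass the filter on low counts only through TS-R. The numbers of calls and of low p-values in these lists, here and below, are therefore a description and no independent support. In TS-R against WTS-R, edgeR's quasi-likelihood test called none of the 57 at a Benjamini-Hochberg FDR under 0.05, and 0% of all genes tested. At an unadjusted p under 0.05, 34 of the 57 were higher and 2 lower, against 15.2% and 7.07% of all genes tested. DESeq2 called 25 higher and 0 lower, against 9.08% and 1.97% of all genes, and limma with voomWithQualityWeights 34 higher and 2 lower, against 13.5% and 8.59%. Without TS-R replicate 1 edgeR called 32 of the 57, all higher, and without TS-R replicate 4 it called 12. Calls over all genes rose too, from 0 to 1906 (1543 higher, 363 lower) without replicate 1. Without replicate 4 they rose to 1238 (984 higher, 254 lower).

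Of 17 other venule genes, 8 had an unadjusted p under 0.05 and a positive difference in TS-R against WTS-R, and the median log2 difference was 0.53, where all genes tested had 0.03. Chst2, the other sulphotransferase that acts on these sugars, had 2.22, 7.51, 22.7 and 3.66 CPM in TS-R, against 0.841, 1.64 and 2.33 CPM in WTS-R. Its log2 difference was 2.18 ± 0.66 by edgeR (FDR 0.0860), and TS-R replicate 1 lay within the WTS-R range. Gcnt1, which branches the sugar core, had 1.54 ± 0.60 (FDR 0.155), and Fut4, a further fucosyltransferase, 1.24 ± 0.41 (FDR 0.106). B3gnt3, which extends the core, had -0.28 ± 0.21 (FDR 0.464). Vcam1, chosen after its values were seen, encodes an adhesion molecule of inflamed endothelium and of lymphoid stroma and had 9.06, 56.1, 139 and 40.1 CPM in TS-R, against 12.6, 6.66 and 11.3 CPM in WTS-R. Endothelial genes of the same list, also chosen then, differed among themselves. Cd34 (-0.29 ± 0.26), Podxl (-0.03 ± 0.31) and Emcn (-0.24 ± 0.25) had values near 0. Sele (2.43 ± 0.72, FDR 0.0805), Icam1 (1.29 ± 0.49, FDR 0.152) and Spns2 (0.55 ± 0.25, FDR 0.2215) had positive values by edgeR. Sele also had a positive value in NS-R against WTS-R, at 2.30 ± 0.74 by edgeR (FDR 0.512). Nkx2-3, the homeodomain factor known to act on Madcam1, had at most 2 counts in any library and was not tested.

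Of 14 other stromal genes, 9 had an unadjusted p under 0.05 and a positive difference, with a median of 1.11. Tnfsf11, the RANK ligand that organiser stroma and T cells make, had 0.134, 5.28, 20.6 and 3.40 CPM in TS-R, against 0, 0.113 and 0 CPM in WTS-R. Il7, a survival factor for T cells, had a log2 difference of 1.03 ± 0.40 by edgeR (FDR 0.155), and Tnfsf13b, the B cell survival factor BAFF, 1.01 ± 0.34 (FDR 0.107). Pdpn, a marker of reticular fibroblasts and lymphatic vessels, had -0.60 ± 0.41 (FDR 0.416). Cr2, chosen after its values were seen, had 0.470, 31.2, 229 and 11.4 CPM in TS-R, against 0, 0.169 and 0.504 CPM in WTS-R, and is shared by follicular dendritic cells and B cells.

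Of 14 genes of lymphotoxin and the alternative NF-kappaB route, 7 had an unadjusted p under 0.05 and a positive difference and 1 a negative one, with a median of 0.73. The 4 largest differences among these 14 were those of the ligand genes Lta, Ltb, Tnfsf14 and Tnf, the last named after its value was seen. Ltb had 4.09, 68.5, 175 and 24.7 CPM in TS-R, against 0.901, 1.07 and 2.14 CPM in WTS-R, a log2 difference of 5.33 ± 1.09 by edgeR (FDR 0.0624). Lta had 0.0336, 5.95, 25.3 and 1.80 CPM in TS-R, against 0.0601, 0.113 and 0 CPM in WTS-R. Every TS-R library was above WTS-R for Ltb, whereas TS-R replicate 1 was not for Lta. Tnfsf14, which encodes LIGHT, had 2.75 ± 0.78 (FDR 0.0742). The receptor gene Ltbr, which stromal and myeloid cells rather than lymphocytes express, had -0.23 ± 0.34 (FDR 0.734).

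Of 12 homing receptor genes, 10 had an unadjusted p under 0.05 and a positive difference and 1, the egress receptor gene S1pr1, a negative one of -0.80 ± 0.29 by edgeR (FDR 0.131; named after its value was seen). The median was 3.47. Ccr7, the receptor of Ccl21a and Ccl19, had 0.772, 37.1, 66.3 and 5.97 CPM in TS-R, against 0.721, 0.847 and 0.882 CPM in WTS-R. Cxcr5, the receptor of Cxcl13, had 1.51, 20.3, 115 and 6.81 CPM in TS-R, against 0.661, 0.565 and 0.189 CPM in WTS-R. Ccr7 and Ccl19 were both in the WTS-R range in TS-R replicate 1, whereas Cxcr5 and Cxcl13 were both above it there. Itga4, a chain of the receptor for Madcam1 and Vcam1, had 1.75 ± 0.61 (FDR 0.118).

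In NTS-R against TS-R the same 57 genes gave 0 calls by edgeR, against 0% of all genes. At an unadjusted p under 0.05, 34 were lower and 2 higher, against 14.1% and 5.59% of all genes tested, DESeq2 called 23 lower and 0 higher (7.15% and 1.14% of all genes) and limma 27 lower and 0 higher (7.28% and 2.20%). Without TS-R replicate 1 edgeR called 30, all lower, and without TS-R replicate 4 it called 14. Over all genes it then called 1018 (37 higher, 981 lower) and 880 (160 higher, 720 lower). The list medians were -0.54 for venule genes, -1.30 for stromal genes, -1.01 for lymphotoxin genes and -2.94 for homing receptors, where all genes tested had -0.03. Chst2 had 1.39, 1.24 and 1.27 CPM in NTS-R, a log2 difference of -2.46 ± 0.68 to TS-R (edgeR FDR 0.105), and every NTS-R library was below every TS-R library. Ltb had 4.06, 1.03 and 0.703 CPM in NTS-R and a difference of -4.83 ± 1.05 (FDR 0.105), and Cxcr5 had 3.01, 0.483 and 0.422 CPM and -4.45 ± 1.26 (FDR 0.107). NTS-R replicate 1, the library of that group with the most Cxcl13, also had the most Ltb and Cxcr5 of its group. Ltbr had -0.04 ± 0.34 (FDR 0.968).

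Neither remaining comparison gave a call among the 57 genes by edgeR, DESeq2 or limma. In NS-R against WTS-R an unadjusted p under 0.05 marked 4 of them as higher and 0 as lower, against 4.92% and 0.388% of all genes tested, of which DESeq2 called 1.10% higher and limma 0.0811%. In NTS-R against NS-R 4 were lower and 0 higher, against 5.11% and 1.25% of all genes, of which DESeq2 called 1.18% lower and 0.0232% higher and limma 0.0695% lower. For the difference between the diabetes effects, edgeR called none of the 57 and none of the 17270 genes, with a lowest FDR of 0.136 among the 57. At an unadjusted p under 0.05, 25 of the 57 had a negative and 1 a positive value, against 13.6% of all genes tested with a negative one. Of all 17270 genes, 812 had a positive value at that limit.

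**Figure D4:**
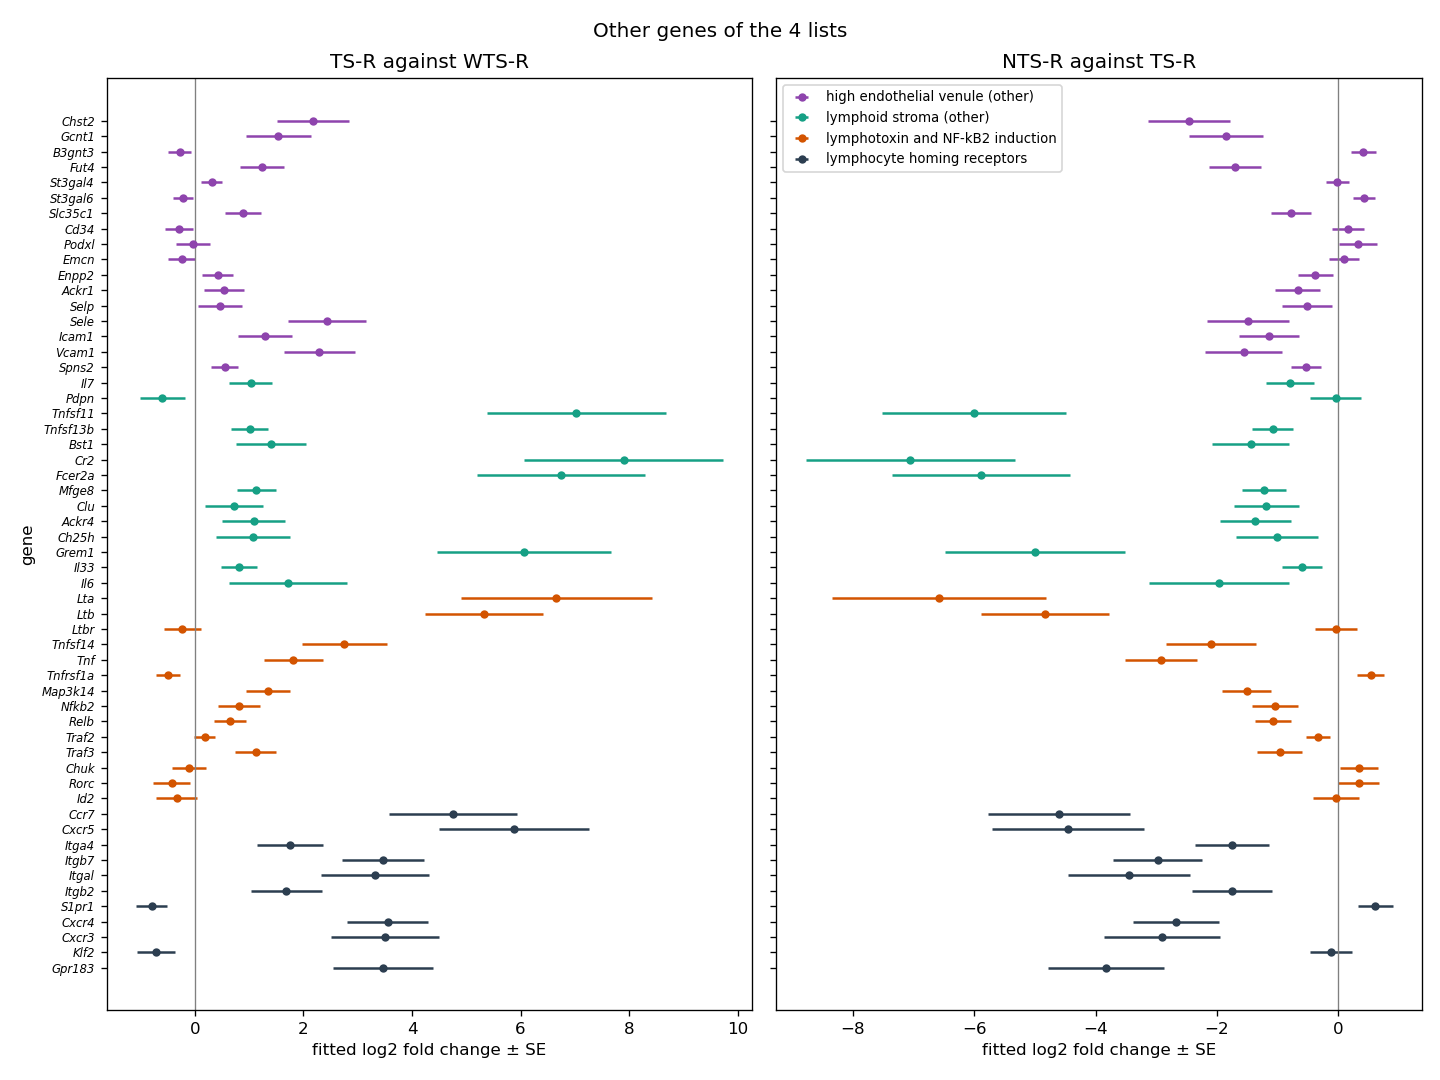
Fitted log2 fold change ± SE of other genes of the 4 lists, with 1 gene of the 57 not shown, in TS-R against WTS-R (left) and NTS-R against TS-R (right), coloured by list; the panels share the TS-R libraries. Lymphotoxin ligands lie far from 0, as Ltb at 5.33 and -4.83, and so do most homing receptors, whereas Klf2 (-0.71 and -0.12) and S1pr1 (-0.80 and 0.61) of that list do not, both named after their values were seen, and Ltbr, Cd34 and Podxl lie near 0.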

How the data were processed

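RNA was extracted with TRIzol and made into paired-end ABclonal mRNA-seq libraries, per the labels' protocols. The authors deposited 1 table of raw read counts per gene for all 13 libraries, made with HISAT2 and featureCounts per the submitters' processing notes; the sources used here do not give build, annotation, strand setting or versions. Of 34013 identifiers, 33302 were matched to a symbol. The members and the gene lists were chosen with earlier results of these data known. Here counts were divided by library totals to give CPM, and tested with edgeR 4.0.16 in R 4.3.3: filterByExpr (17270 genes), TMM, and 1 quasi-likelihood fit over all 13 libraries with Benjamini-Hochberg adjustment over all genes. The common biological coefficient of variation was 0.389. Scaling by library totals in place of TMM moved the median log2 difference of all genes in TS-R against WTS-R to 0.31, against 0.03 with TMM, and to -0.33 in NTS-R against TS-R, against -0.03. Fitted values use TMM, and CPM values library totals. The SE of an edgeR value is its absolute log2 difference divided by the square root of the quasi-likelihood F statistic. The script was tested on simulated data. No 2 libraries of a group agreed within sampling noise (lowest chi-square per degree of freedom 36.0). DESeq2 1.42.0, limma 3.58.1 (voomWithQualityWeights), RLE, no filter, a replicate block, leaving out each library and library totals (chosen after seeing the data) were the alternatives. Transcript lengths came from GENCODE M21, a choice made after seeing the data, and pooled-count intervals are exact Clopper-Pearson at 95% (scipy 1.17.1). Genes named were the members, the first 4 of each list (1 of them is not reported here), any called, and the 8 most like the members; others are marked as chosen after their values were seen.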

Additional observations from a re-analysis of the deposited data

Results flagged for a closer look

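For 4 members 1 TS-R library lay far above the other 3 by Dixon's criterion. Chance meets it in about 1 of 20 groups where values are normally distributed. It was applied here to CPM on a linear scale, where the values are skewed, so that rate need not hold for them. In each it was TS-R replicate 3, with 1166 CPM of Glycam1, 301 CPM of Cxcl13, 13.3 CPM of Madcam1 and 33.6 CPM of Coch. The gap to the next library took 0.936, 0.863, 0.832 and 0.920 of the range of TS-R, in the same order. These 4 members share their libraries, so the flags are not independent. The same library had 805 CPM of Xist and the lowest adipocyte marker sum, at 4399 CPM; their part in the values was not tested.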

How the results depend on the processing

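Among the 57 other genes of the lists, calls in TS-R against WTS-R were 0 by edgeR, 25 by DESeq2, 36 by limma, 15 with no filter on low counts and 19 with library totals, and leaving out 1 library gave 0 to 32. In NTS-R against TS-R they were 0, 23, 27 and 12 under the first 4 of these and 0 with library totals, and 0 to 30 without 1 library. Over all genes, TS-R against WTS-R had 0 calls by edgeR, 1906 by DESeq2 (1566 higher, 340 lower), 3816 by limma (2332 higher, 1484 lower), 889 with no filter, 1154 with library totals (1131 higher, 23 lower) and 0 to 1906 without 1 library. NTS-R against TS-R had 0 by edgeR, 1429 by DESeq2, 1638 by limma, 404 with no filter and 0 to 1018 without 1 library. Without TS-R replicate 1 the counts were 1906 and 1018, and without TS-R replicate 4 they were 1238 and 880. NS-R against WTS-R had 190 by DESeq2, 14 by limma, 138 with no filter and 0 to 503 without 1 library (503 without NS-R replicate 3). NTS-R against NS-R had 208, 12, 126 and 0 to 563 (563 without NS-R replicate 3). RLE gave 0 in all 4 comparisons; the cause of these differences was not tested. The replicate block gave 784 calls in TS-R against WTS-R (6 of the 57 genes) and 76 in NTS-R against TS-R (1 of the 57), and 0 in the other 2. Correlations of same-numbered deviations were -0.195, -0.066 and -0.133 between TS-R and WTS-R libraries, -0.001, -0.053 and 0.119 between NTS-R and TS-R, 0.033, -0.091 and -0.102 between NS-R and WTS-R, and 0.193, 0.057 and 0.202 between NTS-R and NS-R. In no comparison did all 3 pass the limit set for pairing, so the numbers were not taken to pair the samples. The members were chosen with their values known, and the refits share libraries, so nothing is read from the signs that follow. Fitted member differences kept their sign in all 85 alternative values of each TS-R comparison. Of these values, 5 (TS-R against WTS-R) and 6 (NTS-R against TS-R) moved by over 1 SE. By limma Cxcl13 had 3.50 in the first and Coch -1.75 in the second, and Glycam1 had 8.67 and -8.91; the others were without TS-R replicate 3 or NTS-R replicate 1. The member differences changed sign in 7 of 84 values in NS-R against WTS-R and 10 of 84 in NTS-R against NS-R, where they lie within their standard errors. Glycam1 and Madcam1 failed the filter without TS-R replicate 2, 3 or 4 and gave no fitted value there. Depth limits Glycam1, Madcam1 and Fut7 outside TS-R, where libraries held few counts.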
